A study of Homo sapiens with 12 samples.

Results

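Polycomb repressive complex 2 (PRC2) is the enzyme complex that methylates a lysine of histone H3 (H3K27), a mark of silenced genes. Its 10 genes EZH2, EZH1, EED, SUZ12, RBBP4, RBBP7, JARID2, PHF1, MTF2 and PHF19 were chosen by name, not by their values. All 10 were matched from symbol to Ensembl identifier, out of 33704 genes with a read in at least 1 of the 3 deposited tables.

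The messenger RNA came from Jurkat, an established human T-cell acute lymphoblastic leukaemia line, in 12 libraries that formed 6 groups of 2. One Jurkat line carried a doxycycline-inducible shRNA against TAL1 and was cultured in the absence of doxycycline (TAL1-control) or in its presence at 5 µg/ml for 72 h (TAL1-KD). A second line carried an inducible shRNA against UTX and was grown without the drug (UTX-control) or with it at the same dose and time (UTX-KD). Both of these lines were kept in Tet-free serum with blasticidin and G418. Jurkat cells in ordinary serum received DMSO, the vehicle (J4-control), or GSK-J4, a small-molecule inhibitor of the KDM6 demethylases, at 2 µM (J4-2uM), for 72 h in both cases. TAL1 is a blood transcription factor that is active in this leukaemia, and UTX is the protein of KDM6A. The groups TAL1-KD and UTX-KD differ from their controls by the drug doxycycline as well as by the shRNA, and the effects of drug and shRNA cannot be told apart. Whether replicates were separate cultures, and whether a line was a single clone, is not given in the sources used here, so p-values reflect the variation of these samples alone, which could be technical.

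PRC2 works as a core with exchangeable partners. EZH2 or its relative EZH1 is the catalytic subunit, EED binds the finished mark and stimulates the enzyme, SUZ12 is the scaffold, and RBBP4 or RBBP7 holds histones. The Polycomb-like proteins PHF1, MTF2 and PHF19 replace one another in one form of the complex, and JARID2 belongs to another form. EZH2 is the main enzyme of dividing cells and EZH1 is more prominent in resting ones. KDM6A and KDM6B remove the mark that PRC2 lays down. In T-cell leukaemia PRC2 genes are recurrently lost by mutation.

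Libraries held 55524079 to 82534711 counted reads, and no member had fewer than 1850 reads in any library. The mRNA of the targeted genes was not called lower in the libraries that carry their names. The log2 fold change of TAL1 was -0.07 (SE 0.09) in TAL1-KD against TAL1-control (edgeR adjusted p = 0.490), and that of KDM6A was -0.08 (SE 0.04) in UTX-KD against UTX-control (edgeR adjusted p = 0.103). These 2 comparisons are therefore named by their labels. TAL1 was called lower in UTX-KD against UTX-control (-0.12 with SE 0.03, edgeR adjusted p = 0.00155). It was also called lower with GSK-J4 (-0.66 with SE 0.03, edgeR adjusted p = 6.02e-10). All 8 T-lineage markers were present in every library, from LCK at 458 to 1115 CPM (read counts scaled to library size by the trimmed mean of M values, TMM) down to CD2 at 29.9 to 109.7 CPM and LAT at 8.10 to 22.2 CPM. Of 10 markers of other blood cells, 9 reached at most 3.07 CPM, while CD79A stood at 36.4 to 84.1 CPM, above LAT. In the UTX-labelled comparison the 10 markers summed to 41.9 to 42.9 CPM in UTX-control and 60.8 to 62.4 CPM in UTX-KD. They summed to 39.0 to 39.1 CPM in J4-control and 80.1 to 89.3 CPM in J4-2uM, with CD79A again the main contributor. In the TAL1-labelled comparison the sums were 79.6 to 81.1 and 67.8 to 73.5 CPM. Of the markers tested, 2 of 4 rose in the UTX-labelled comparison, 4 of 7 rose with GSK-J4 and 1 of 5 fell in the TAL1-labelled one. The shares of all tested genes that were called in these directions were 25.2%, 37.9% and 27.9%. The part of these markers in the PRC2 results was not tested.

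Most PRC2 genes changed in each comparison, and they did not change in one direction. EZH1 and PHF1 rose in all 3 comparisons. EED, SUZ12, MTF2 and PHF19 fell in all 3. However, SUZ12 with GSK-J4 kept its direction and call in only 5 of 15 alternative ways of processing, and changed sign under scaling by total counts. MTF2 in the TAL1-labelled comparison changed sign once GC content and transcript length were allowed for. JARID2 rose in the TAL1-labelled and UTX-labelled comparisons and fell with GSK-J4. EZH2 fell in the TAL1-labelled and UTX-labelled comparisons and was not called with GSK-J4. In bulk RNA, fewer cells of one state and less RNA per cell cannot be told apart.

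In the TAL1-labelled comparison 3 members were higher and 5 lower at an edgeR adjusted p under 0.05, beside 26.3% of 16829 tested genes called higher and 27.9% called lower. For UTX-KD, 3 members were higher and 6 lower, beside 25.2% and 25.3% of 16847 genes. With GSK-J4, 2 members were higher and 7 lower, beside 37.9% and 36.9% of 17907 genes. The shares of members called higher were close to the background or below it, and those called lower were above it, on 10 genes. The median log2 fold change of the 10 members was -0.16, -0.17 and -0.15 in the TAL1-labelled, UTX-labelled and GSK-J4 comparisons, beside -0.02, 0.01 and 0.01 over all tested genes. Control and treated libraries did not overlap in 29 of the 30 member comparisons, the exception being RBBP7 in the TAL1-labelled one. The groups also did not overlap for 81% (TAL1-labelled), 73.9% (UTX-labelled) and 87.1% (GSK-J4) of all tested genes, so the members' count is read only against these shares. Values for TAL1-KD are the least precise, since the biological coefficient of variation there was 8.40%, against 2.30% for UTX-KD and 2.69% for GSK-J4.

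With an offset for GC content and transcript length, 3 members in place of 5 were lower and 4 in place of 3 higher in the TAL1-labelled comparison. When all 12 libraries shared 1 fit, 1 member in place of 3 was higher in the UTX-labelled one. The directions with GSK-J4 depend on the scaling. With libraries scaled by total counts alone, 5 members were higher and 3 lower, because that scaling moved the median log2 fold change of all genes by 0.17. The split of all calls moved from 6794 higher and 6616 lower to 8652 and 4947 with GSK-J4, from 4240 and 4269 to 6327 and 2693 in the UTX-labelled comparison, and from 4424 and 4696 to 3023 and 5497 in the TAL1-labelled one. In the same scaling EZH2 stood at 0.14 with GSK-J4, SUZ12 at 0.09 and RBBP4 at 0.09, and EED at -0.06 and MTF2 at -0.05 were not called (edgeR adjusted p = 0.147 and 0.320). Relative to the median of all genes these 5 values were -0.04, -0.09, -0.09, -0.24 and -0.23. EZH1, PHF1, JARID2, PHF19 and RBBP7 kept their direction and call with GSK-J4 in all 15 alternatives run.

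**Figure D1:**
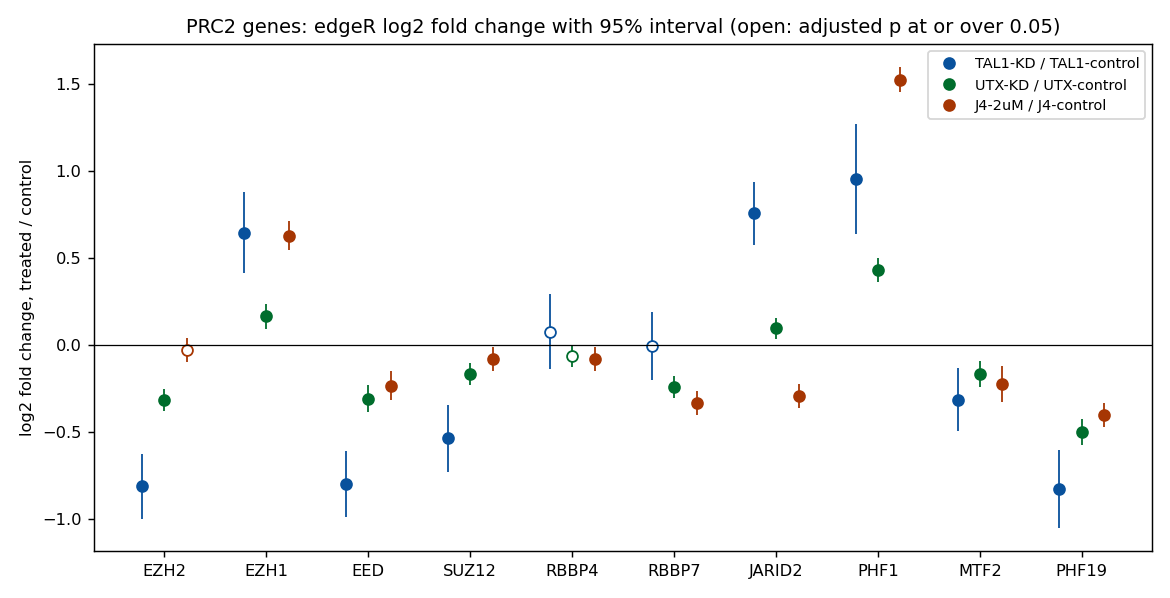
Log2 fold change of each PRC2 gene (vertical axis, treated over control) in the TAL1-labelled (blue), UTX-labelled (green) and GSK-J4 (brown) comparisons, with 95% intervals from edgeR and open circles where the adjusted p was 0.05 or more, n = 2 per group. PHF1 lies above 0 in all 3 comparisons, at 0.95, 0.43 and 1.53, PHF19 lies below 0 in all 3, and JARID2 changes sign.

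The promoters of 5 members are shown because EZH2, SUZ12 and EED (the catalytic and structural core) fell in the TAL1-labelled and UTX-labelled comparisons, in which EZH1 and PHF1 rose. The sequences come from RefSeq (GRCh38.p14), run from 250 bases before to 50 bases after the transcription start, and are written 5′ to 3′ on the strand of the gene. E2F factors switch on genes of DNA replication, and capitals mark one of 4 E2F words, TTTGGCGC, TTTCCCGC, TTTGCCGC or TTTCGCGC, or its reverse complement. EZH2 lies on the minus strand at chr7:148884242-148884541, SUZ12 on the plus strand at chr17:31936757-31937056 and EED on the plus strand at chr11:86244503-86244802. EZH1 lies on the minus strand at chr17:42744991-42745290, and PHF1 on the plus strand at chr6:33410764-33411063.
EZH2: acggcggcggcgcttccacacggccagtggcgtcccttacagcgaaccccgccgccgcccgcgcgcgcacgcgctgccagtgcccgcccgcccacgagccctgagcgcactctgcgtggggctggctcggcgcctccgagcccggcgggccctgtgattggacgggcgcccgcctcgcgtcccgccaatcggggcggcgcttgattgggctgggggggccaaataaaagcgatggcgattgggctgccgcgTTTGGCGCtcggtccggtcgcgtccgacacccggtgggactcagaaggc
SUZ12: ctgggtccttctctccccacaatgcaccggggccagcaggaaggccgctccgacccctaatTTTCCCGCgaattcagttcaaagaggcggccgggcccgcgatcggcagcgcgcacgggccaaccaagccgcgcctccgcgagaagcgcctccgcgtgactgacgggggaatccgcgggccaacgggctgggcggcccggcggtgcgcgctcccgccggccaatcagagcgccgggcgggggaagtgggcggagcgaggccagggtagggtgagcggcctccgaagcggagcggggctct
EED: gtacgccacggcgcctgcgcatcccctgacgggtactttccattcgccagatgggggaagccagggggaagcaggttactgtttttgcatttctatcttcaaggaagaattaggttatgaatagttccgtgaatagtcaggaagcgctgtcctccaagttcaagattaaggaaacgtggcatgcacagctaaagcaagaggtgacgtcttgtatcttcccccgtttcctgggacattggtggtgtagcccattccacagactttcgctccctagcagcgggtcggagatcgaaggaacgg
EZH1: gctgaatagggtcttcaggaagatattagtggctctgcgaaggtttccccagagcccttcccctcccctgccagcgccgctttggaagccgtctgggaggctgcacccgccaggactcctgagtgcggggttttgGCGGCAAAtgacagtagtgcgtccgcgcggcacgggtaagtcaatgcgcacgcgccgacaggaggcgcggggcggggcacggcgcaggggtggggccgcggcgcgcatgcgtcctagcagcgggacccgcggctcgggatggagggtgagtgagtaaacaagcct
PHF1: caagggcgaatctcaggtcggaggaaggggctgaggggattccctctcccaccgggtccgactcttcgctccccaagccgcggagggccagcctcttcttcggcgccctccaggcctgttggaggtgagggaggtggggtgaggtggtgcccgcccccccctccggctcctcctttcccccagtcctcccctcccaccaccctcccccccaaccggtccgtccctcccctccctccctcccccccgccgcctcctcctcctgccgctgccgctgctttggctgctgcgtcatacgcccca

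An E2F word lies at +2 in the EZH2 window, counted from the first transcribed base as +1, at -189 in the SUZ12 window and at -115 in the EZH1 window. MTF2 (+6) and PHF19 (-152) hold one as well. That makes 5 of 10 members with a word in at least 1 of their 15 windows, beside 3.99% of the 27305 genes and 3.31% of the 35116 windows in the same table. These backgrounds were not matched to the members for GC content or for windows per gene. The member windows had a GC content of 52.3% to 79.7%. Another window of EZH2, not shown, holds no E2F word. EED and PHF1 hold none of these words in their windows. The 5 members with a word include EZH1, which rose, and 4 that fell in the TAL1-labelled and UTX-labelled comparisons. The word CCAAT or its reverse complement is in the windows of 7 of 10 members, beside 39.7% of genes. The word TTTGAA or its reverse complement, the core of the cell cycle homology region, is in 1 of 10 members (SUZ12), beside 18.2% of genes. These matches are descriptions of letters and not of bound sites.

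EZH2 (ENSG00000106462), the main catalytic subunit, fell by 43.2% in the TAL1-labelled comparison and by 19.8% in the UTX-labelled one. Its normalised read count was 308 and 302 CPM in the TAL1-control libraries and 176 and 171 CPM in the TAL1-KD libraries. The log2 fold change was -0.81 (edgeR adjusted p = 4.21e-04, SE 0.08). In UTX-control it was 212 and 207 CPM, and in UTX-KD 169 and 167 CPM, a log2 fold change of -0.32 (edgeR adjusted p = 1.02e-07, SE 0.03). Both treated libraries lay below both controls in each case. With GSK-J4 the vehicle libraries stood at 215 and 217 CPM and the treated ones at 209.7 and 214 CPM. That log2 fold change, -0.03 (95% interval -0.10 to 0.04), did not pass the test (edgeR adjusted p = 0.416). The control level of EZH2 was itself higher in the TAL1-control line than in the other 2 control groups, on the scale that joins all 12 libraries (125 against 79.7 and 75.7 CPM per kb of transcript), a difference between lines that was not tested.

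EZH1 (ENSG00000108799), the other catalytic subunit, moved the opposite way. Its normalised read count was 85.4 and 76.0 CPM in TAL1-control and 118 and 135 CPM in TAL1-KD, a log2 fold change of 0.65 (edgeR adjusted p = 0.00168, SE 0.10). With GSK-J4 it went from 72.4 and 71.0 CPM to 107 and 114 CPM, a log2 fold change of 0.63 (edgeR adjusted p = 6.21e-09, SE 0.04). In these 2 comparisons EZH1 was 56.5% and 54.4% higher. UTX-KD showed a smaller rise of 11.98%, from 56.1 and 55.7 CPM to 62.5 and 62.7 CPM, with a log2 fold change of 0.16 (edgeR adjusted p = 5.93e-04, SE 0.03). That change was not called when all 12 libraries shared 1 fit (edgeR adjusted p = 0.0656).

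EZH2 stayed the more abundant of the catalytic pair in every library, and its lead over EZH1 was smaller in every treated library than in its controls. Per kb of transcript, EZH2 reads were 6.65 ± 0.456 times those of EZH1 in TAL1-control and 2.42 ± 0.279 times in TAL1-KD (SD, n = 2). The ratio was 6.58 ± 0.0771 in UTX-control and 4.71 ± 0.0421 in UTX-KD. It was 5.28 ± 0.113 in J4-control and 3.35 ± 0.107 in J4-2uM. In the GSK-J4 comparison EZH1 was called and EZH2 was not. A ratio within a library shows unequal change of the pair and does not depend on how libraries are scaled.

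**Figure D2:**
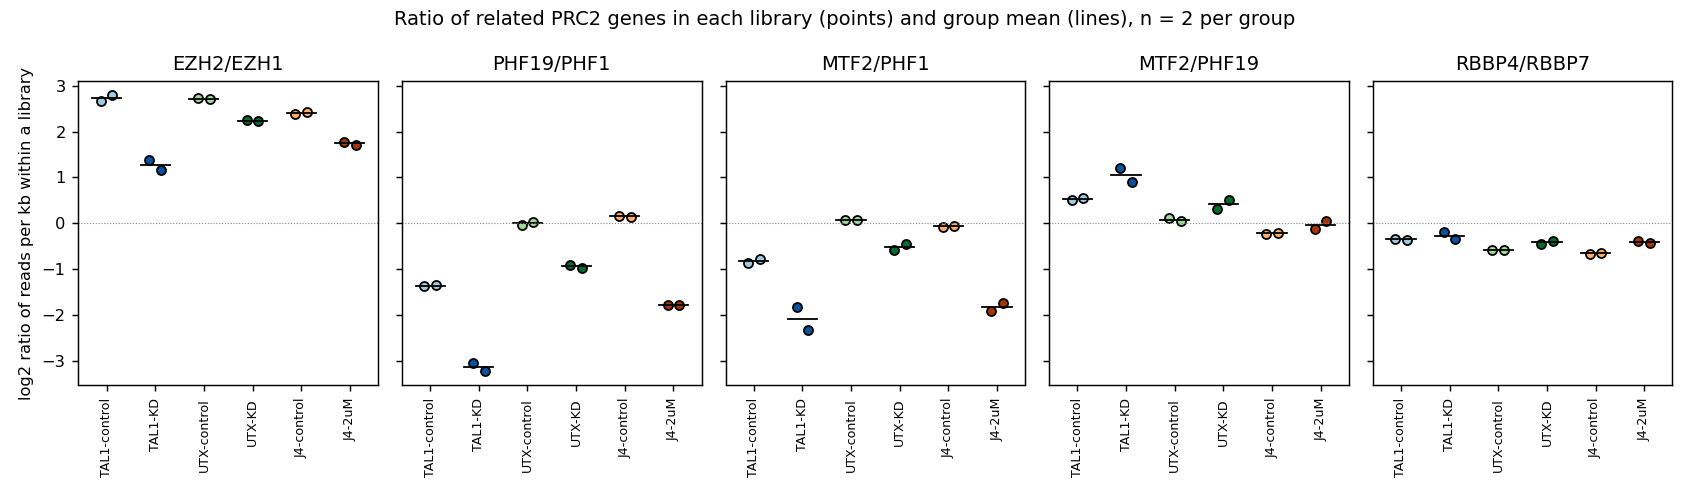
Log2 ratio of reads per kb of transcript for 5 pairs of related PRC2 genes (vertical axis) in each of the 12 libraries (points) with the mean of each group (lines, n = 2 per group). The EZH2 to EZH1 ratio lies between 2.38 and 2.80 in the control libraries and between 1.15 and 2.25 in the treated ones, and the PHF19 to PHF1 ratio is lowest in TAL1-KD.

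EED (ENSG00000074266), the subunit that reads the mark, fell in all 3 comparisons, most in the TAL1-labelled one. Its level was 52.9 and 54.98 CPM in TAL1-control and 31.7 and 30.2 CPM in TAL1-KD, a log2 fold change of -0.80 (edgeR adjusted p = 4.47e-04, SE 0.08). It went from 55.3 and 53.4 CPM to 44.1 and 43.6 CPM in the UTX-labelled comparison (log2 fold change -0.31 with SE 0.04, edgeR adjusted p = 1.83e-06). With GSK-J4 it went from 53.7 and 54.4 CPM to 45.01 and 46.9 CPM (log2 fold change -0.23 with SE 0.04, edgeR adjusted p = 8.83e-05), where EZH2 was not called. No control library overlapped a treated one.

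SUZ12 (ENSG00000178691), the scaffold, showed smaller decreases. Its level was 137 and 146 CPM in TAL1-control and 101 and 93.4 CPM in TAL1-KD, a log2 fold change of -0.54 (edgeR adjusted p = 0.00175, SE 0.08). In the UTX-labelled comparison it went from 129.9 and 130.2 CPM to 114 and 118 CPM, a log2 fold change of -0.17 (edgeR adjusted p = 2.17e-04, SE 0.03). That call was lost with total counts (-0.07, edgeR adjusted p = 0.0535) and in 1 fit of all 12 libraries (edgeR adjusted p = 0.0506). With GSK-J4 it went from 138 and 136 CPM to 129 and 129.8 CPM, a log2 fold change of -0.08 (edgeR adjusted p = 0.0376, SE 0.03). Its direction and call with GSK-J4 were kept in only 5 of 15 alternatives. The call was lost with DESeq2 (adjusted p = 0.0565), the GC and length offset (edgeR adjusted p = 0.0571) and no low-count filter (edgeR adjusted p = 0.110). It was also lost in 1 fit of all 12 libraries (edgeR adjusted p = 0.159) and without J4-control replicate 1 (-0.08) or replicate 2 (-0.10). With total counts SUZ12 was called higher there (0.09, edgeR adjusted p = 0.0202). In the TAL1-labelled comparison, SUZ12 stood at -0.19 once the library-specific effects of transcript GC content and length were removed (edgeR adjusted p = 0.0775), and its transcript has a GC content of 38.0%. A near copy, SUZ12P1, had 1297 to 2392 reads per library, and how reads with several positions were counted is not given in the sources used here.

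RBBP4 (ENSG00000162521) and RBBP7 (ENSG00000102054) are histone chaperones that also serve other complexes. RBBP4 was at 605 and 613 CPM in TAL1-control and 651 and 634 CPM in TAL1-KD, a log2 fold change of 0.08 (95% interval -0.14 to 0.29), which was not called (edgeR adjusted p = 0.508). With the GC and length trend removed it was 0.33 and called higher (edgeR adjusted p = 0.0332). The UTX-labelled log2 fold change was -0.07 (edgeR adjusted p = 0.0737, SE 0.03). It was called lower with that trend removed (-0.08, edgeR adjusted p = 0.00408), with DESeq2 (adjusted p = 0.0364) and without UTX-KD replicate 2 (edgeR adjusted p = 0.0293). With GSK-J4 it went from 576 and 586 CPM to 555 and 542 CPM, a log2 fold change of -0.08 (edgeR adjusted p = 0.0323, SE 0.03). Direction and call of RBBP4 with GSK-J4 were kept in 7 of 15 alternatives. The call was lost with no low-count filter (edgeR adjusted p = 0.0684) and in 1 fit of all 12 libraries (edgeR adjusted p = 0.125). It was also lost without J4-control replicate 1 (-0.10) or replicate 2 (-0.08). With total counts RBBP4 was called higher there (0.09, edgeR adjusted p = 0.0190).

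RBBP7 was at 224 and 233 CPM in TAL1-control and 219 and 236 CPM in TAL1-KD, the only overlap between groups among the members. Its log2 fold change there, -0.01 (95% interval -0.20 to 0.19), was not called (edgeR adjusted p = 0.959). RBBP7 fell by 15.5% in the UTX-labelled comparison, from 261 and 262 CPM to 223 and 219 CPM (log2 fold change -0.24 with SE 0.03, edgeR adjusted p = 2.05e-06). It fell by 20.7% with GSK-J4, from 270.0 and 268 CPM to 214 and 213 CPM (log2 fold change -0.33 with SE 0.03, edgeR adjusted p = 4.16e-07). RBBP7 shares 2.42% of its exon bases with TXLNG on the opposite strand and RBBP4 18.0% with SYNC, which had 368 reads over all 12 libraries.

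**Figure D3:**
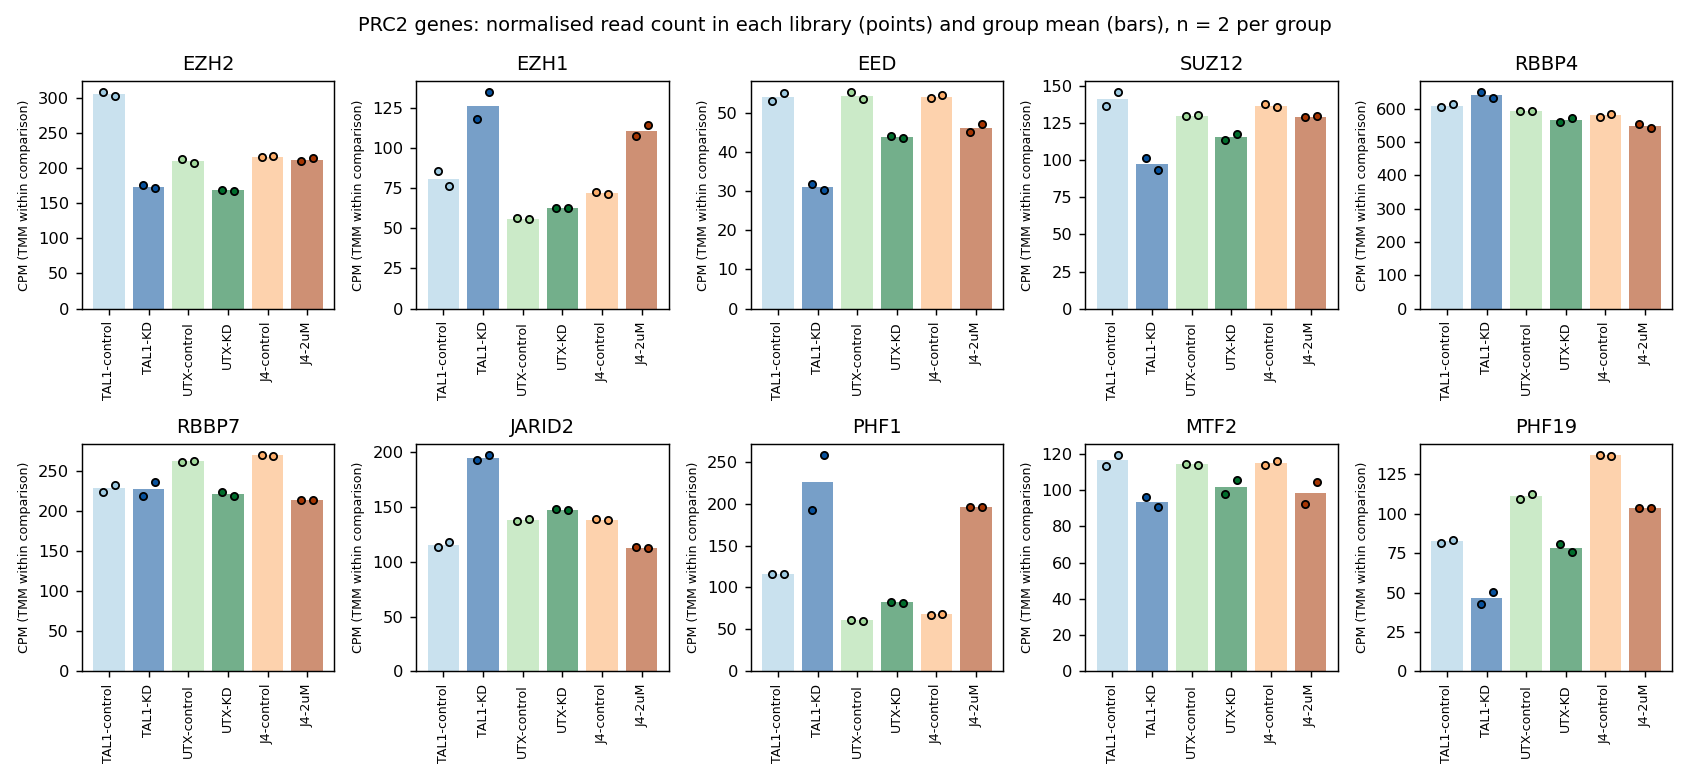
Normalised read count of each PRC2 gene (vertical axis, CPM scaled by TMM within a comparison, from 0) in each library (points) with the mean of each group (bars, n = 2 per group). EZH2 falls from 308 and 302 CPM to 176 and 171 CPM in TAL1-KD, and PHF1 rises from 67.6 and 68.4 CPM to 196.0 and 195.9 CPM with GSK-J4.

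JARID2 (ENSG00000008083), the partner of the second PRC2 form, was the only member called in opposite directions. Its level was 113 and 118 CPM in TAL1-control and 193 and 198 CPM in TAL1-KD, a log2 fold change of 0.76 (edgeR adjusted p = 4.53e-04, SE 0.08). With GSK-J4 it went down from 139 and 138 CPM to 114 and 113 CPM, a log2 fold change of -0.29 (edgeR adjusted p = 2.13e-06, SE 0.03). The UTX-labelled change was small, from 137 and 139 CPM to 148 and 147 CPM (log2 fold change 0.09 with SE 0.03, edgeR adjusted p = 0.0126). It was not called without UTX-control replicate 1 (edgeR adjusted p = 0.135), nor when the GC and length trend was removed (edgeR adjusted p = 0.123), nor in 1 fit of all 12 libraries (edgeR adjusted p = 0.0733). The difference between the TAL1-labelled and GSK-J4 responses of JARID2 was 1.08 (SE 0.08) on the log2 scale and passed the interaction test (edgeR adjusted p = 2.26e-06).

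Among the Polycomb-like genes, PHF1 (ENSG00000112511) rose in all 3 comparisons while MTF2 and PHF19 fell. PHF1 went from 67.6 and 68.4 CPM in J4-control to 196.0 and 195.9 CPM in J4-2uM, an increase of 188% and a log2 fold change of 1.53 (edgeR adjusted p = 4.75e-13, SE 0.03). The TAL1-control libraries had 116 and 117 CPM and the TAL1-KD libraries 192 and 259 CPM (log2 fold change 0.95 with SE 0.14, edgeR adjusted p = 0.00128). The 2 TAL1-KD libraries stood far apart, yet both lay above both controls. PHF1 also went, in the UTX-labelled comparison, from 61.5 and 60.6 CPM to 82.9 and 81.4 CPM (log2 fold change 0.43 with SE 0.03, edgeR adjusted p = 1.00e-08).

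PHF19 (ENSG00000119403) fell by 43.8% in the TAL1-labelled comparison, from 81.6 and 83.4 CPM to 42.7 and 50.1 CPM. Its log2 fold change was -0.83 (edgeR adjusted p = 6.34e-04, SE 0.10). In the UTX-labelled comparison it went from 109 and 113 CPM to 80.8 and 76.0 CPM (log2 fold change -0.50 with SE 0.03, edgeR adjusted p = 3.23e-09), the lowest fold change of the 10 members there. With GSK-J4 it went from 138 and 137 CPM to 104 and 103.7 CPM (log2 fold change -0.40 with SE 0.03, edgeR adjusted p = 8.59e-08).

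MTF2 (ENSG00000143033) showed smaller decreases. It went from 113 and 119.5 CPM to 96.1 and 90.9 CPM in the TAL1-labelled comparison (log2 fold change -0.32 with SE 0.08, edgeR adjusted p = 0.0116). That call was lost without TAL1-control replicate 1 (edgeR adjusted p = 0.108) or replicate 2 (edgeR adjusted p = 0.218), and with the GC and length trend removed the value was 0.03. The UTX-labelled libraries went from 115 and 114 CPM to 97.9 and 105 CPM (log2 fold change -0.17 with SE 0.03, edgeR adjusted p = 6.76e-04), a call lost with total counts (-0.07, edgeR adjusted p = 0.0946) and in 1 fit of all 12 libraries (edgeR adjusted p = 0.0888). With GSK-J4 they went from 114 and 116 CPM to 92.5 and 104 CPM (log2 fold change -0.22 with SE 0.05, edgeR adjusted p = 7.89e-04).

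The make-up of the Polycomb-like transcripts therefore moved towards PHF1. Of the reads per kb on the 3 genes, PHF1 held 50.7% and 51.6% in TAL1-control and 71.2% and 76.6% in TAL1-KD. It held 32.4% and 33.0% in UTX-control and 44.6% and 45.4% in UTX-KD. With GSK-J4 its share went from 32.6% and 32.7% to 64.2% and 62.8%, and that of PHF19 from 36.4% and 36.0% to 18.7% and 18.3%. In every comparison both treated libraries lay above both controls for the PHF1 share. The transcripts of PHF1, PHF19 and MTF2 have a GC content of 59.9%, 57.9% and 37.9%. The shares were not computed with the GC and length offset, and the part of GC content in them was not tested.

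The 3 responses were set against each other by interaction tests over 8 libraries each. The TAL1-labelled and UTX-labelled responses differed for 8 of 10 members, beside 50.1% of all genes tested. The TAL1-labelled and GSK-J4 responses differed for 7, beside 53.9%, and the UTX-labelled and GSK-J4 responses for 4, beside 58.4%. The first count was 5 without TAL1-control replicate 1 or 2, UTX-control replicate 1, or UTX-KD replicate 1 or 2. EZH2 fell further in the TAL1-labelled comparison than in the UTX-labelled one, with a difference of -0.46 (SE 0.07) on the log2 scale (edgeR adjusted p = 6.82e-04). EZH2 also fell further in the UTX-labelled comparison than with GSK-J4, by a difference of -0.30 (edgeR adjusted p = 1.80e-06, SE 0.05).

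The response of EZH1 was not shown to differ between the TAL1-labelled and GSK-J4 comparisons, with a difference of 0.05 and a 95% interval of -0.20 to 0.30 (edgeR adjusted p = 0.737). Scaling by total counts reversed and called it (-0.30, edgeR adjusted p = 0.0324). With TMM scaling and all libraries, the response of MTF2 did not differ past the threshold in any pair, with 95% intervals of -0.30 to 0.07, -0.27 to 0.15 and -0.07 to 0.17 in the TAL1-UTX, TAL1-GSK-J4 and UTX-GSK-J4 pairs. The first of these passed without TAL1-KD replicate 1 (edgeR adjusted p = 0.0398) and the last without J4-2uM replicate 2 (edgeR adjusted p = 0.0296). The TAL1-UTX difference of MTF2 was also called with upper quartile scaling (-0.27, edgeR adjusted p = 0.0219) and total counts (-0.38, edgeR adjusted p = 0.0115), and its TAL1-GSK-J4 difference with total counts (-0.40, edgeR adjusted p = 0.0109). PHF1 rose more with GSK-J4 than in the UTX-labelled comparison, by a difference (UTX-labelled minus GSK-J4) of -1.11 (edgeR adjusted p = 2.64e-17, SE 0.05). The differences of EED and SUZ12 between the UTX-labelled and GSK-J4 responses missed the threshold, with 95% intervals of -0.20 to 0.03 and -0.19 to 0.00. Both passed with total counts, at -0.15 and -0.16 (edgeR adjusted p = 0.0174 and 0.00329).

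The levels of the members were compared as CPM per kb of transcript, with TMM over all 12 libraries and the longest basic coding transcript. The median over the 12 libraries was 105 for RBBP7, 74.2 for RBBP4, 74.1 for EZH2, 45.1 for PHF1, 27.5 for SUZ12, 25.7 for MTF2, 23.1 for JARID2, 21.6 for PHF19, 21.3 for EED and 16.1 for EZH1. The ranges of neighbours in this order overlapped, RBBP4 (61.6 to 86.9) with EZH2 (65.1 to 126) and EED (14.8 to 26.7) with EZH1 (12.01 to 31.7) among them. The span from the lowest to the highest library was 4.66-fold for PHF1, 2.82-fold for PHF19 and 2.64-fold for EZH1, and 1.37-fold for RBBP7. With the length of all annotated exons in place of 1 transcript, an alternative added after the data were seen, the first 3 were RBBP4, EZH2 and RBBP7 and the last was EED. The rank of a gene therefore depends on which transcript is taken as its length.

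Genes whose levels followed EZH2 and EZH1 over the 12 libraries were ranked as a description, without a test. For EZH2 the 5 nearest of 10810 genes by Pearson correlation of log2 CPM were CKAP2L (0.985), LIG1 (0.985), FBXO5 (0.979), TOPBP1 (0.978) and SEC14L2 (0.964). LIG1 is a DNA ligase of replication, FBXO5 an inhibitor of the anaphase-promoting complex, TOPBP1 a replication checkpoint protein and CKAP2L a spindle protein. For EZH1 the 5 nearest included CAMTA2 (0.990), GSDMB (0.989), EFNB1 (0.989) and IRF3 (0.989). The 12 libraries are 6 pairs that share cells and treatment, so these values describe 6 groups more than 12 independent points. On the same scale EZH2 stood at 332 and 327 CPM in the TAL1-control libraries and at most 214 CPM in any other library. The weight of the TAL1-control group in these correlations was not tested.

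Genes of cell division were mostly lower in all 3 comparisons. Of 18 proliferation genes, 16 were lower in TAL1-KD and none higher, all 18 were lower in UTX-KD, and with GSK-J4 12 were lower and 3 higher. Over all tested genes 27.9%, 25.3% and 36.9% were called lower in the same order, and 26.3%, 25.2% and 37.9% higher. The medians of the list were -0.71, -0.46 and -0.24 on the log2 scale. CCNB1, the cyclin of mitosis, changed by -1.22 (SE 0.08), -1.14 (SE 0.03) and -2.27 (SE 0.04) in the same order. PLK1, a mitotic kinase, changed by -0.92 (SE 0.04) in the UTX-labelled comparison and -1.44 (SE 0.04) with GSK-J4, where EZH2 was not called. The part of these genes in the PRC2 results was not tested.

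Of 13 E2F and RB family genes, 9 were lower and 1 higher in TAL1-KD, 8 lower and 1 higher in UTX-KD, and 9 lower and 4 higher with GSK-J4. Among all tested genes the shares called lower were 27.9%, 25.3% and 36.9%, and those called higher 26.3%, 25.2% and 37.9%. E2F2, an activating E2F, went from 333 to 161 CPM in the TAL1-labelled comparison (log2 fold change -1.05, SE 0.10) and from 112 to 290.3 CPM with GSK-J4 (1.37, SE 0.03). E2F7 and E2F8, the atypical repressors, changed by -1.03 (SE 0.07) and -1.23 (SE 0.08) in the TAL1-labelled comparison. RB1, the retinoblastoma gene, changed by -1.001 (SE 0.03) with GSK-J4.

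Of 4 genes for partners or inhibitors of PRC2 outside the 10 members, 1 was higher and 1 lower in TAL1-KD, and 2 were higher and 1 lower with GSK-J4. Of the 3 tested in UTX-KD, 1 was higher and 2 were lower. The shares of all tested genes called are those given beside the 10 members. AEBP2, which joins JARID2 in the second form of the complex, changed by -0.14 (SE 0.04) in the UTX-labelled comparison and -0.29 (SE 0.04) with GSK-J4. LCORL, which binds the first form, went from 38.5 to 95.6 CPM with GSK-J4 (log2 fold change 1.32, SE 0.04) and changed by 0.23 (SE 0.04) in the UTX-labelled comparison. LCOR, its relative, changed by -0.46 (SE 0.10) in the TAL1-labelled comparison and -0.19 (SE 0.06) in the UTX-labelled one. EZHIP, an inhibitor of PRC2, was called higher in the TAL1-labelled and GSK-J4 comparisons but reached at most 0.716 CPM in every library tested.

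PRC1, which binds the mark and modifies histone H2A, was split between directions. Of 23 PRC1 genes tested, 8 were higher and 5 lower in TAL1-KD (34.8% and 21.7%, beside 26.3% and 27.9% of all tested genes). In UTX-KD 10 were higher and 5 lower (43.5% and 21.7%, beside 25.2% and 25.3%). With GSK-J4 11 were higher and 8 lower (47.8% and 34.8%, beside 37.9% and 36.9%). The list medians were 0.13, 0.05 and 0.07. BCORL1, a corepressor, rose from 36.2 to 81.0 CPM in the TAL1-labelled comparison (1.16, SE 0.12) and from 32.6 to 59.7 CPM with GSK-J4 (0.87, SE 0.04). PHC1, a polyhomeotic subunit, rose by 0.35 (SE 0.04) in the UTX-labelled comparison and by 0.89 (SE 0.03) with GSK-J4. L3MBTL2 fell by 0.82 (SE 0.03) with GSK-J4 on the log2 scale. Of 10 genes of the H2A deubiquitinase complex PR-DUB, 5 were higher and none lower in TAL1-KD, 5 higher and 5 lower in UTX-KD, and 2 higher and 5 lower with GSK-J4. The shares of all tested genes are those given for PRC1.

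**Figure D4:**
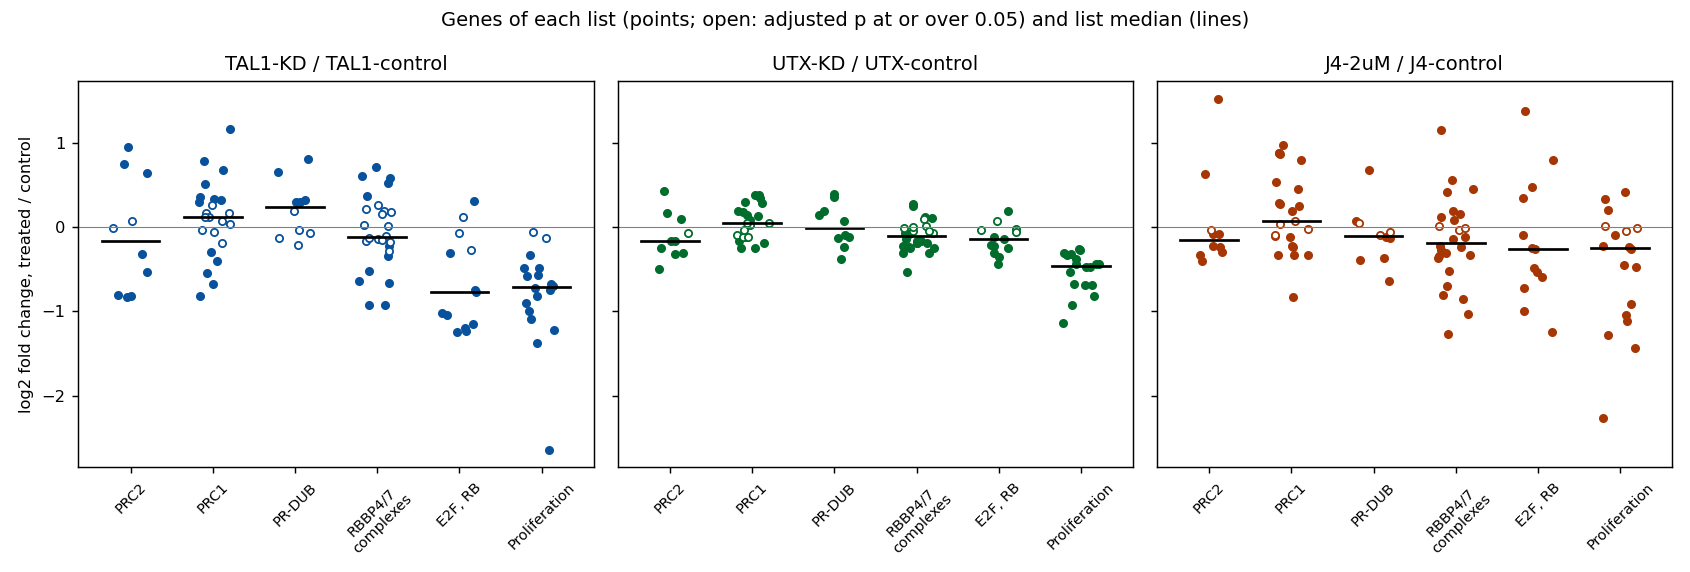
Log2 fold change of each gene (points, vertical axis, treated over control) in 6 lists for the TAL1-labelled, UTX-labelled and GSK-J4 comparisons, with the list median as a line and open circles where the edgeR adjusted p was 0.05 or more. Within the UTX-labelled panel the proliferation genes have the lowest median of the 6 lists, -0.46, while their median in the TAL1-labelled panel is -0.71. The PRC2 genes spread on both sides of 0 in each panel.

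RBBP4 and RBBP7 also serve in chromatin assembly, deacetylase and remodelling complexes. Of 26 other genes of those complexes, 7 were lower and 5 higher in TAL1-KD, 15 lower and 4 higher in UTX-KD, and 15 lower and 8 higher with GSK-J4. As shares of the list, lower then higher, these were 26.9% and 19.2%, 57.7% and 15.4%, and 57.7% and 30.8%. The shares of all tested genes were 27.9% and 26.3%, 25.3% and 25.2%, and 36.9% and 37.9%. HDAC2, a histone deacetylase, fell from 289.5 to 120.2 CPM with GSK-J4 (log2 fold change -1.27, SE 0.04). CHAF1B, a subunit of the chromatin assembly factor, changed by -0.67 (SE 0.07) in the TAL1-labelled comparison, in which neither RBBP4 nor RBBP7 was called.

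The enzymes that act against PRC2 on the same residue were higher, mixed or not called. Over all tested genes 26.3%, 25.2% and 37.9% were called higher in the TAL1-labelled, UTX-labelled and GSK-J4 comparisons, and 27.9%, 25.3% and 36.9% lower. KDM6B rose in all 3 comparisons, by 0.93 (SE 0.08), 0.45 (SE 0.03) and 0.39 (SE 0.03), and KDM6A rose with GSK-J4 by 0.44 (SE 0.04). KDM6A was not called in the TAL1-labelled (0.19, edgeR adjusted p = 0.0576) or UTX-labelled comparison (-0.08, edgeR adjusted p = 0.103). Scaled within each comparison, KDM6A stood at 30.9 and 31.3 CPM in UTX-control, 52.9 and 53.7 CPM in TAL1-control, and 42.9 and 42.4 CPM in J4-control. These control levels were not tested against each other. Of the acetyltransferases, CREBBP rose by 0.14 (SE 0.03) in the UTX-labelled comparison and by 0.69 (SE 0.04) with GSK-J4, and was not called in the TAL1-labelled one (0.21). EP300 rose by 0.37 (SE 0.09) in the TAL1-labelled comparison and changed by -0.09 (SE 0.03) and -0.09 (SE 0.04) in the UTX-labelled and GSK-J4 ones.

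The calls in the authors' deposited table were the same for 28 of the 30 member comparisons. The 2 exceptions in the authors' deposited table were RBBP4 in the UTX-labelled comparison (adjusted p = 0.0224, lower) and SUZ12 with GSK-J4 (adjusted p = 0.0519, not called).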

How the data were processed

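RNA from 12 Jurkat libraries was made into stranded mRNA libraries, per the labels' protocols. The tools named by the submitters' processing notes are TopHat2 (2.0.12), DESeq2 and HTSeq (0.6.1p1), with hg19 as the build. How strand and multi-mapped reads were treated in counting is not given in the sources used here. The authors deposited raw read counts per Ensembl gene in 1 table per comparison. The log2 fold changes deposited by the authors, and the adjusted p-values deposited with them, were used only for the comparison of calls.

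The counts were analysed in R 4.3.3 with edgeR 4.0.16: filterByExpr, TMM scaling, quasi-likelihood fits on the 4 libraries of each comparison, two-sided tests, Benjamini-Hochberg adjustment over all genes tested and a threshold of 0.05. Differences between comparisons were tested as interactions over 8 libraries. Standard errors are the absolute log2 fold change over the root of F. CPM are TMM-scaled within a comparison, or over all 12 libraries where levels are per kb. DESeq2 1.42.0 was an alternative, as were other scalings, filters and thresholds, a replicate block, a GC and length offset, 1 fit of all libraries and leaving out each library. The DESeq2 test, the offset and the fit of all libraries were not run for the differences between comparisons. The procedure was also run on simulated data in which 200 genes were changed, far fewer than were called here. That simulation cannot decide between the scalings, and its result is not given here. Symbols and transcript lengths came from GENCODE 29. The promoter coordinates are those of GRCh38.p14, which is not the build of the counts (hg19). The listed genes EPOP, PCGF2 and HBB were not analysed here, and 1 gene near EZH1 in the likeness ranking is not reported here. The members were chosen by name and not by their values. Earlier results of these data were known when the members, lists, tests and alternatives were chosen. Named genes are the members, the targets, and up to 3 called genes per list and comparison with the smallest adjusted p. Same-numbered replicates correlated, in their deviations from group means, by 0.19, -0.14 and -0.04 in the TAL1-labelled, UTX-labelled and GSK-J4 comparisons, so the numbers were not taken to pair samples.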

Additional observations from a re-analysis of the deposited data

Results flagged for a closer look

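The responses of PRC2 genes to the 3 treatments differed in 19 of the 30 interaction tests (edgeR, adjusted p under 0.05 over all genes). These were 8, 7 and 4 of 10 in the TAL1-UTX, TAL1-GSK-J4 and UTX-GSK-J4 pairs, beside 50.1%, 53.9% and 58.4% of all genes, so the last count is below the background. These differences are on the log2 scale, first response minus second. The comparisons used different cells, so treatment and cell source differ together and cannot be told apart.

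Between the TAL1-labelled and UTX-labelled responses, the difference was 0.69 for JARID2, 0.56 for PHF1, 0.51 for EZH1 and 0.27 for RBBP7, and -0.46 for EZH2, -0.46 for EED, -0.34 for SUZ12 and -0.29 for PHF19. Of the genes that fell in both, EZH2, EED, SUZ12 and PHF19 fell further in TAL1-KD. MTF2 also fell in both, with a difference of -0.12 that was not called (edgeR adjusted p = 0.259). Those that rose in both, EZH1, PHF1 and JARID2, rose further in TAL1-KD. The differences of PHF1, PHF19 and RBBP7 lost their calls when single libraries were left out, with edgeR adjusted p up to 0.0642, 0.166 and 0.0968. With total counts the differences of EZH1 (0.24, edgeR adjusted p = 0.0672), PHF1 (0.28, edgeR adjusted p = 0.0842) and RBBP7 (-6.9e-04) were not called, nor was that of RBBP7 with upper quartile scaling (0.12, edgeR adjusted p = 0.197).

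Between the TAL1-labelled and GSK-J4 responses, the difference was 1.08 for JARID2, which rose in one and fell in the other. It was 0.36 for RBBP7, -0.76 for EZH2, -0.54 for EED, -0.43 for SUZ12, -0.54 for PHF1 and -0.40 for PHF19. That of PHF1 was not called without J4-2uM replicate 1 or 2 (edgeR adjusted p = 0.0523 in both). That of RBBP7 was 0.01 with total counts and not called (edgeR adjusted p = 0.863). The differences were not fitted with the GC and length offset. Under that offset the TAL1-labelled fold change of SUZ12 was -0.19 and not called (edgeR adjusted p = 0.0775).

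Between the UTX-labelled and GSK-J4 responses, the difference was -1.11 for PHF1, -0.47 for EZH1, -0.30 for EZH2 and 0.38 for JARID2. These 4 kept their direction and call in every alternative run for the differences. The DESeq2 test, the GC and length offset and the fit of all 12 libraries were not among those alternatives.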

How the results depend on the processing

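Of the 30 member fold changes, 16 kept direction and call in every alternative run. Over all members and alternatives, 403 fold changes were unchanged in direction and call, 33 lost a call, 7 gained one and 17 changed sign, mostly in genes close to 0. The cause was not tested except where named. Total counts in place of TMM move the median of all genes by -0.14 (TAL1-labelled), 0.09 (UTX-labelled) and 0.17 (GSK-J4). With them RBBP4 was -0.0657 and 0.0266 in the TAL1-labelled and UTX-labelled comparisons, and EZH2 was 0.141, SUZ12 0.0906 and RBBP4 0.0884 with GSK-J4, where 5 members were higher and 3 lower. In the same scaling the TAL1-UTX differences of RBBP4 and RBBP7 were -0.0923 and -6.9e-04, and the TAL1-GSK-J4 differences of EZH1 and RBBP4 were -0.299 and -0.154. The UTX-GSK-J4 differences of MTF2 and RBBP4 were -0.0202 and -0.0618, with 7 members differing in that pair. With upper quartile scaling RBBP4 was -0.0029 in the TAL1-labelled comparison and the EZH1 TAL1-GSK-J4 difference was -0.0606. With DESeq2 size factors the UTX-GSK-J4 difference of RBBP4 was -1.7e-04. RBBP7 in the TAL1-labelled comparison was 0.0201 with those size factors, 0.0201 with the DESeq2 test, and 0.0178 in 1 fit of all 12 libraries. That fit gave 1 UTX-labelled member higher and 5473 genes called there. At an adjusted p under 0.01, 5918 genes were called in the TAL1-labelled comparison, and 5 members differed between the TAL1-labelled and UTX-labelled responses. With the GC and length offset the TAL1-labelled comparison had 4 members higher, RBBP4 at 0.332 among them, and 3 lower, with MTF2 at 0.0320 and RBBP7 at 0.162, and EZH2 with GSK-J4 was 0.0330.

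The same replicate numbers were also fitted as a block, though they were not shown to pair the samples. The replicate block gave 3 members higher and 5 lower in the TAL1-labelled comparison, 3 and 6 in the UTX-labelled one and 2 and 5 with GSK-J4, with 9761, 8344 and 13485 genes called. With the offset and the block, the TAL1-labelled comparison had 4 members higher, RBBP4 at 0.331 among them, and 3 lower, with MTF2 at 0.0309 and RBBP7 at 0.160, and EZH2 with GSK-J4 was 0.0330. A crossed pairing of the UTX-labelled libraries, added after the data were seen, gave 3 members higher and 7 lower, and 8803 genes called.

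Leaving out each library in turn gave 5525 to 11952 genes called in the TAL1-labelled comparison, the lowest without TAL1-control replicate 1, and 5893 without TAL1-control replicate 2. RBBP7 there ranged from -0.0585 to 0.0634. Between 5 and 10 members differed in the TAL1-UTX pair. The TAL1-GSK-J4 difference ranged from -0.0551 to 0.156 for EZH1 and from -0.139 to 0.0177 for MTF2. The UTX-GSK-J4 difference ranged from -0.0148 to 0.138 for MTF2 and from -0.0094 to 0.0455 for RBBP4. Where an arm kept 1 library, its spread was taken from the other groups. With 2 libraries per group, changes of the size of RBBP4 are at the limit of what was called, and each member had at least 1850 reads.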
